A study of Bos taurus with 9 samples.

Results

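The 10 genes described here make fatty acids from acetyl-CoA and join them to glycerol as triglyceride. They are ACACA, ACACB, ACLY, FASN, SCD, ELOVL6, SREBF1, MLXIPL, GPAM and DGAT2, and they were taken by symbol, whatever their values, from the 28786 genes listed in the table of raw read counts. All 10 had reads and all 10 passed the filter on low counts in every comparison, in which 14510 to 15073 genes were tested. Their levels were measured by poly(A) RNA-seq in liver biopsies of lactating Holstein cows, 1 biopsy and 1 library from each of 9 cows. Of these, 3 thermoneutral cows (TN) were kept in thermoneutrality and fed freely, 3 heat-stressed cows (HS) were kept in hot conditions, with hotter days than nights, and 3 pair-fed cows (PF) were kept in thermoneutrality with their feed matched to the intake of the HS cows. All groups had an acclimation period in thermoneutrality, and the biopsies were taken late in the treatment. Cow ages were not given in the sources used here, and each pairwise comparison of groups rests on 3 cows against 3.

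Fatty acid synthesis starts in the cytosol, where ATP citrate lyase (ACLY) makes acetyl-CoA from citrate, acetyl-CoA carboxylase 1 (ACACA) makes malonyl-CoA, and fatty acid synthase (FASN) builds palmitate. Chain elongation (ELOVL6) and desaturation (SCD) follow, and GPAM and DGAT2 catalyse the first and the last step of triglyceride assembly. SREBF1 and MLXIPL encode transcription factors that respond to insulin and sterols and to carbohydrate, respectively. In cattle adipose tissue and, in lactation, the mammary gland are the main sites of fatty acid synthesis, acetate is the main carbon source, and the liver contributes little. The liver nevertheless esterifies the fatty acids it takes up from blood.

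ACACA is the member whose difference from TN had the smallest p-value in both the HS and the PF comparison, and the study designed RT-qPCR primers for this transcript, having picked it among genes that changed in these same cows. The primers are shown because they define the stretch of the ACACA transcript that the study followed by a separate assay. They are written 5′ to 3′ in lower case, with no part marked, and the RT-qPCR values were not analysed here.
ACACA forward primer: ggagacaaacagggaccattac
ACACA reverse primer: gtggaaggaatgcttgggag

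The libraries held 16874444 to 22557047 counts on genes. Expression is given as TMM-normalized CPM, the counts of a gene scaled to a common library size, and 3 counts, the limit that a count of 0 allows, equal 0.111 to 0.202 CPM. The 13 mitochondrial protein-coding genes took 13.6% to 22.2% of the counts in TN, 6.90% to 7.79% in PF and 3.84% to 5.68% in HS cows. Of the marker lists, the 8 hepatocyte markers were all present and summed to 14462 CPM in TN replicate 1, the lowest of the 9 cows, against 49130 to 61887 CPM in the other TN cows, 66616 to 99900 CPM in PF and 47017 to 101333 CPM in HS cows. ALB made up most of this sum in every cow, with 8768 CPM in TN replicate 1. Among the TN cows, APOA1 (842 CPM) and APOB (974 CPM) were not lowest in that cow, while the other hepatocyte markers were. The 6 immune cell markers, all present, summed to 199 to 279 CPM in TN, 175 to 281 CPM in PF and 315 to 560 CPM in HS cows, so that every HS cow lay above every other cow. The adipocyte list was at 16.1 to 31.2 CPM in all cows, with 2 of its 7 markers at 0 and 4 under 1 CPM in every cow. CIDEA, at 10.4 to 28.5 CPM, made up most of this sum in every cow. The skeletal muscle list was at 14.0 to 33.2 CPM, with 2 of its 6 markers at 0 and 5 under 1 CPM. DES, at 13.8 to 32.9 CPM, made up nearly all of this sum in every cow.

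ACACA, the first committed enzyme of fatty acid synthesis, was lower in each of the 6 cows that ate less, heat-stressed or not, than in any TN cow. ACACA was at 185.5, 40.2 and 184 CPM in TN replicates 1, 2 and 3. It was at 35.6, 36.6 and 15.0 CPM in PF replicates 1, 2 and 3, and at 32.1, 25.1 and 38.4 CPM in the HS cows in the same order. All 6 HS and PF cows lay below all TN cows, but TN replicate 2 lay close above them and far below the other TN cows. The group means were 137 ± 83.5 CPM in TN, 29.1 ± 12.2 CPM in PF and 31.9 ± 6.64 CPM in HS cows (SD, n = 3). In a bulk biopsy, fewer cells that express a gene and less RNA per cell cannot be told apart.

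**Figure D1:**
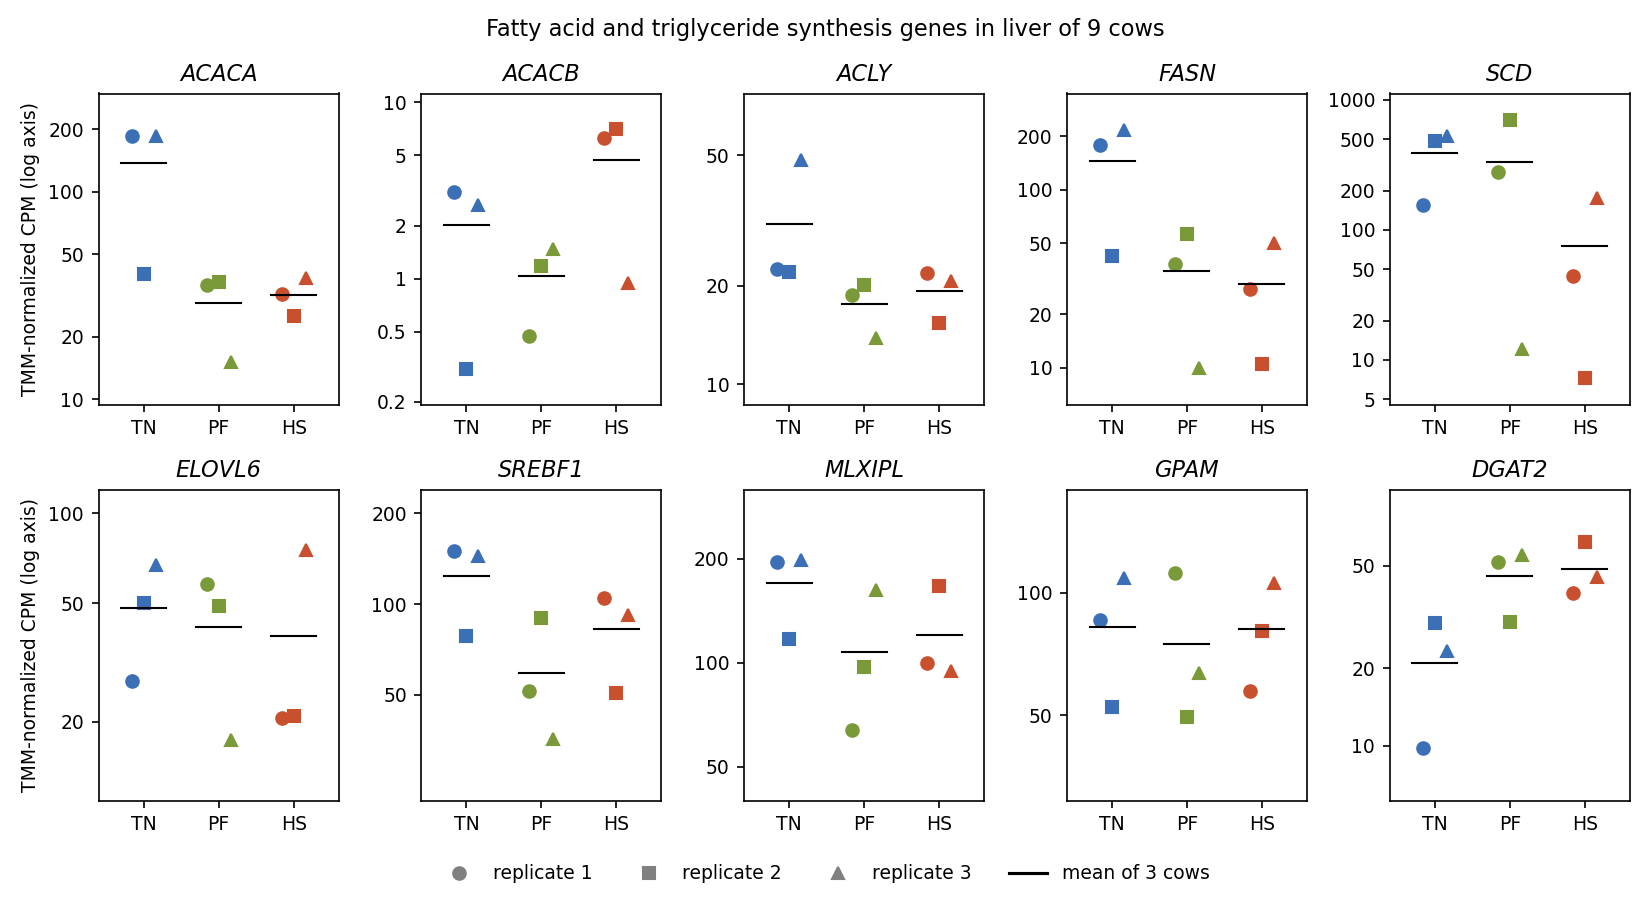
TMM-normalized CPM (vertical log axes, different in each panel) of the 10 genes in the 9 cows by group (horizontal axes), with 1 symbol per cow, its shape giving the replicate number, and a line at the mean of 3 cows. ACACA is higher in all TN cows than in the other cows and DGAT2 lower, while the SCD values of the PF and HS cows spread over more than an order of magnitude.

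FASN, the enzyme downstream of ACACA, was at 178, 42.6 and 218 CPM in the TN cows, at 38.2, 56.6 and 9.89 CPM in the PF cows and at 27.8, 10.5 and 50.5 CPM in the HS cows. TN replicates 1 and 3 lay above all other cows, and TN replicate 2 lay within the range of the HS and PF cows. The means were 146 ± 91.8, 34.9 ± 23.5 and 29.6 ± 20.1 CPM in TN, PF and HS (SD, n = 3).

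ACLY, which supplies cytosolic acetyl-CoA from citrate, differed less. It was at 22.4, 21.9 and 48.2 CPM in TN, 18.7, 20.1 and 13.9 CPM in PF and 21.8, 15.4 and 20.6 CPM in HS cows. No HS or PF cow reached the lowest TN cow, although HS replicate 1 lay just under it, and only TN replicate 3 stood well apart. The second acetyl-CoA carboxylase, ACACB, whose malonyl-CoA restrains the entry of fatty acids into mitochondria, had few reads, from 5 to 169 counts in a cow. It was at 3.09, 0.309 and 2.62 CPM in TN, 0.474, 1.17 and 1.48 CPM in PF and 6.24, 7.02 and 0.942 CPM in HS cows. HS replicates 1 and 2 were the highest of the 9 cows, and HS replicate 3 lay within the range of the PF cows.

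SCD, the desaturase that puts the first double bond into stearate and palmitate, varied most among cows of a group. It was at 156, 485 and 528 CPM in TN cows. In the PF cows it was at 282, 701 and 12.2 CPM, and in the HS cows at 44.0, 7.25 and 175 CPM. PF replicate 2 had the highest and HS replicate 2 the lowest level, 96.6-fold apart, and the groups overlapped in every pair. The highest PF cow stood 57.3-fold above the lowest PF cow, against 24.2-fold in HS and 3.38-fold in TN. ELOVL6, which lengthens palmitate to stearate, was at 27.5, 50.0 and 67.3 CPM in TN, 58.0, 49.0 and 17.4 CPM in PF and 20.6, 21.0 and 75.2 CPM in HS cows. Its groups overlapped throughout, with the highest cow of all in HS and the lowest in PF.

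SREBF1 was at 150, 78.6 and 145 CPM in TN, 51.4, 90.0 and 35.7 CPM in PF and 105, 50.6 and 92.0 CPM in HS cows. Again TN replicates 1 and 3 were the highest cows and TN replicate 2 lay among the others. MLXIPL, the carbohydrate response element binding protein, was at 196, 117 and 199 CPM in TN, 63.8, 97.3 and 162 CPM in PF and 100, 167 and 94.7 CPM in HS cows. PF replicate 3 and HS replicate 2, which had the lowest SCD and FASN of their groups, had the highest MLXIPL of their groups.

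DGAT2 ran in the direction opposite to ACACA. This enzyme, which adds the last acyl chain, was at 9.80, 30.0 and 23.4 CPM in TN, 51.8, 30.3 and 55.0 CPM in PF and 39.1, 61.9 and 45.4 CPM in HS cows. Every HS and PF cow lay above every TN cow, with PF replicate 2 only just above TN replicate 2. The means were 21.1 ± 10.3, 45.7 ± 13.4 and 48.8 ± 11.8 CPM in TN, PF and HS (SD, n = 3). TN replicate 1, the cow with the lowest sum of hepatocyte markers, most of it ALB, was also the lowest for DGAT2. GPAM, the mitochondrial enzyme that starts glycerolipid synthesis, was at 85.6, 52.6 and 109 CPM in TN, 112, 49.4 and 63.5 CPM in PF and 57.5, 80.7 and 106 CPM in HS cows, and all its groups overlapped.

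Individual cows differed more in these genes than in most others. The SD of log2 CPM within groups, pooled over the 3 groups, had a median of 0.72 over the 10 genes and of 0.39 over all 15073 genes tested, and each of the 10 lay above the latter. SCD had an SD of 2.25, above that of 99.9% of genes, FASN one of 1.23 (99.1%), ACACB one of 1.08 (98.5%), ELOVL6 one of 0.89 (96.5%) and ACACA one of 0.86 (95.6%). ACLY, at 0.43, was nearest to the typical gene. PF replicate 3 was the lowest of the 9 cows in 5 genes, namely ACACA, ACLY, FASN, ELOVL6 and SREBF1, and TN replicate 3 was the highest in 3.

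**Figure D2:**
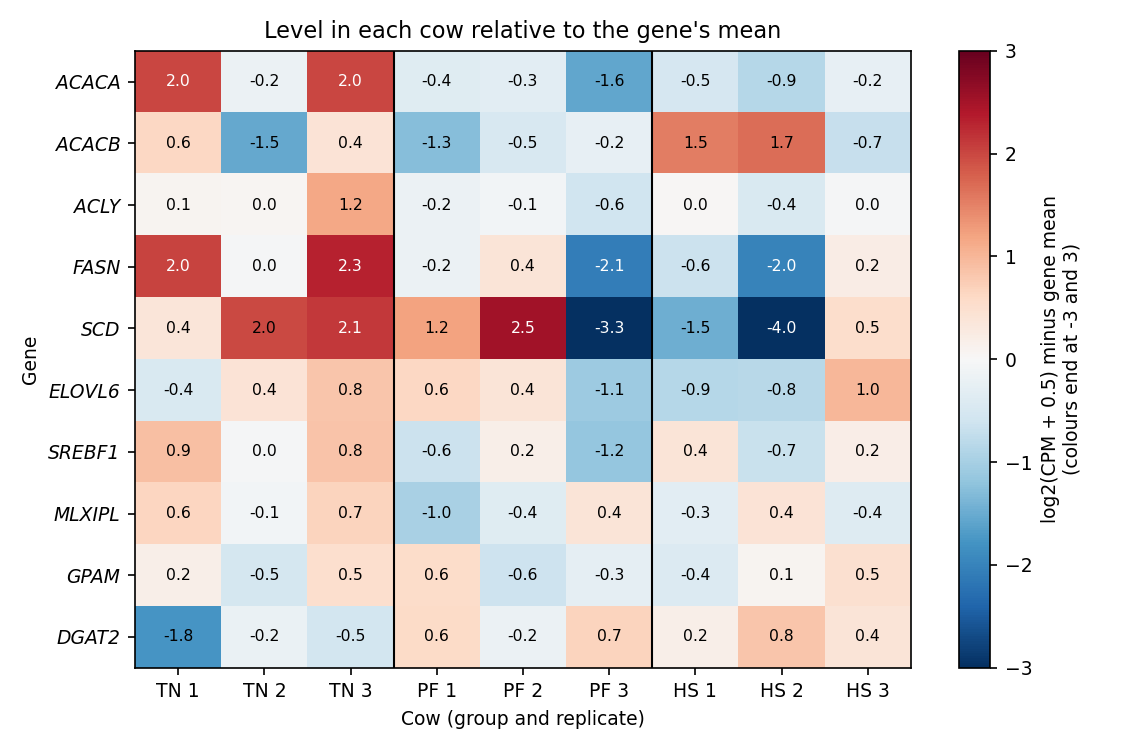
Level of each gene (rows) in each cow (columns, black lines between the groups) as log2(CPM + 0.5) minus the mean of that gene over the 9 cows, printed in each cell. TN replicates 1 and 3 are high for ACACA and FASN, PF replicate 3 and HS replicate 2 are low for FASN and SCD, and TN replicate 1 is low for DGAT2.

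The comparison of HS with TN cows addressed the response to heat together with the lower feed intake that comes with it. ACACA, FASN and SCD had lower fitted levels in HS cows and DGAT2 a higher one, each with an unadjusted p under 0.05, but 0 of the 10 genes were DEGs. DEGs were genes with a fold change above 1.5 and an FDR below 0.1 in the quasi-likelihood test of edgeR, the FDR being adjusted by Benjamini-Hochberg across all tested genes. Of all 14582 genes tested, 0.0892% were DEGs. An unadjusted p under 0.05 was found for 4 of the 10 genes and for 9.36% of all. The log2 fold change of ACACA was −2.12 (SE 0.51, FDR = 0.290), that of FASN −2.32 (SE 0.66, FDR = 0.392), that of SCD −2.37 (SE 0.92, FDR = 0.487) while DGAT2 was 2.30-fold higher (SE 0.37 on the log2 scale, FDR = 0.416). With DESeq2, the tool of the study, ACACA (FDR = 0.00088) and DGAT2 (FDR = 0.0928) were DEGs, as were 1.75% of the genes with an adjusted p in that test. The other fitted log2 fold changes were −0.69 for ACLY, −0.61 for SREBF1, −0.52 for MLXIPL, −0.32 for ELOVL6 and −0.04 for GPAM, and ACACB was 2.30-fold higher with a 95% interval of the log2 fold change from −0.65 to 3.06. ACACA and ACLY were lower and DGAT2 higher in every HS cow than in every TN cow, whereas 16.1% of all genes tested did not overlap. The median log2 fold change of the 10 genes was −0.57 and that of all genes −0.01. The immune cell markers and the mitochondrial share moved with the group in this comparison, and their part in these differences was not tested. Without TN replicate 1 the log2 fold change was −1.82 for ACACA and 0.87 for DGAT2. That of SCD ranged from −1.83 without HS replicate 2 to −3.93 without HS replicate 3, which also moved ELOVL6 to −1.22. Without TN replicate 2 ACACA passed the criteria for a DEG (log2 fold change −2.55, FDR = 0.0362 with edgeR).

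**Figure D3:**
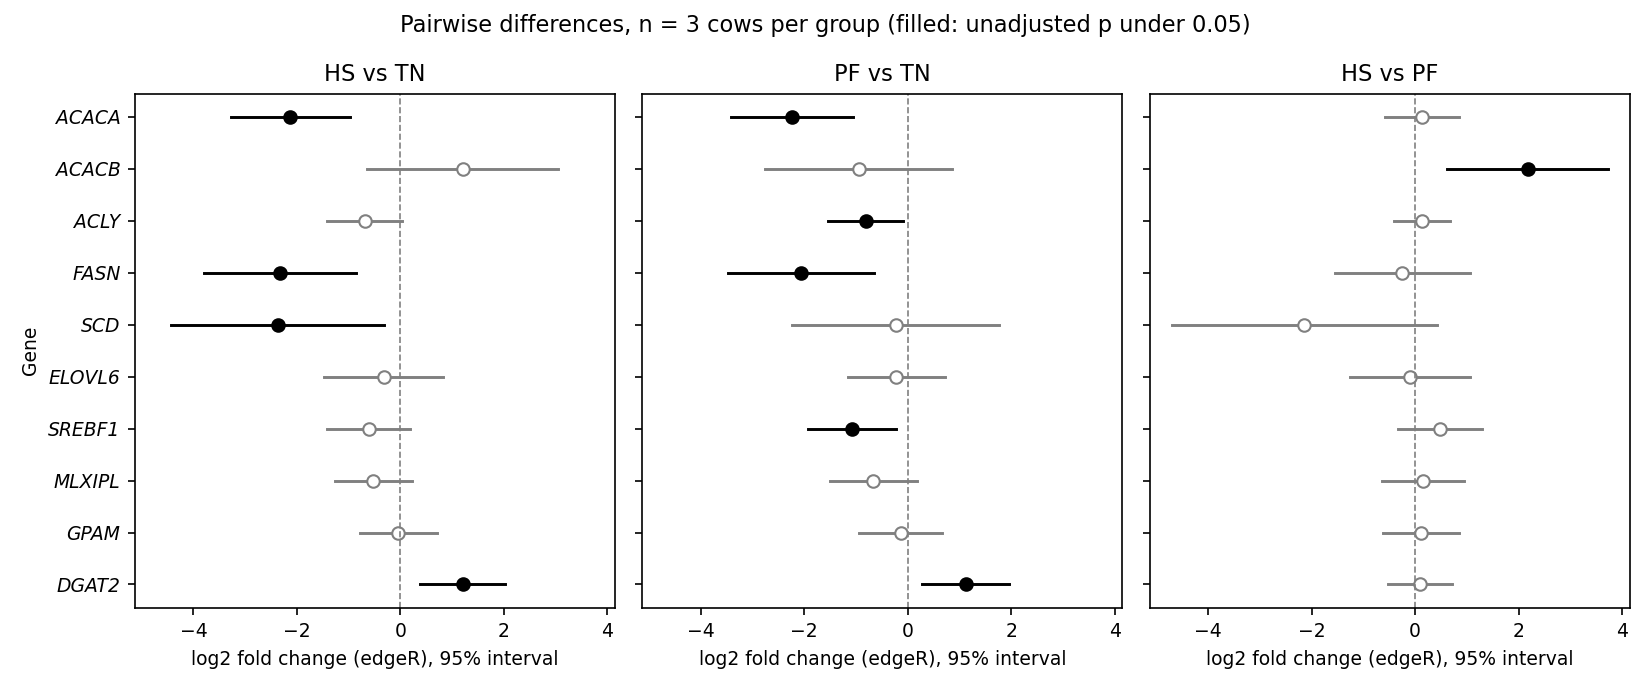
Fitted log2 fold changes (horizontal axes, points) with their 95% intervals (lines) for the 10 genes in the 3 pairs of groups, n = 3 cows per group, filled black where the unadjusted p of edgeR is under 0.05. ACACA and FASN lie below 0 and DGAT2 above 0 in both comparisons with TN, and only the interval of ACACB leaves out 0 between HS and PF.

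The comparison of PF with TN cows addressed lower intake without heat. ACACA, FASN, SREBF1 and ACLY had lower fitted levels in PF cows and DGAT2 a higher one, each with an unadjusted p under 0.05. The log2 fold change was −2.24 for ACACA (SE 0.54, edgeR FDR = 0.577), −2.07 for FASN (SE 0.64, FDR = 0.693), −1.08 for SREBF1 (SE 0.39, FDR = 0.697), −0.82 for ACLY (SE 0.33, FDR = 0.708) and 1.12 for DGAT2 (SE 0.39, FDR = 0.697). None of the 10 was a DEG by edgeR, nor was any gene (0% of 14580), while 5 of the 10 and 6.88% of all genes had an unadjusted p under 0.05. By DESeq2, 1 of the 10 was a DEG, ACACA (FDR = 0.00217), against 0.555% of genes. SCD had a log2 fold change of −0.24 with a 95% interval from −2.24 to 1.77, and of 0.36 without PF replicate 3. MLXIPL was at −0.67, ACACB at −0.95, ELOVL6 at −0.22 and GPAM at −0.14. PF and TN cows did not overlap in ACACA, ACLY and DGAT2, against 13.2% of all genes. The median log2 fold change was −0.74 over the 10 genes and −0.01 over all genes. The sum of the hepatocyte markers was higher in every PF cow than in every TN cow, but of its genes only ALB did not overlap between these groups. The mitochondrial share was lower in every PF cow (values above). The part of the marker sum and of the mitochondrial share in these differences was not tested. Without TN replicate 1, ACACA was at −1.94 and DGAT2 at 0.78, and without TN replicate 2 ACACA was at −2.67 and a DEG (FDR = 0.0647 with edgeR).

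The comparison of HS with PF cows addressed heat at matched intake. ACACB was the only one of the 10 with an unadjusted p under 0.05. Its log2 fold change was 2.17 (SE 0.70, FDR = 0.669 with edgeR), with 1 of the 3 HS cows inside the PF range. SCD was at −2.14 (SE 1.16), with a 95% interval from −4.71 to 0.42, and ranged from −0.96 without PF replicate 2 to −3.69 without HS replicate 3. The differences of the other genes had 95% intervals that took in 0. They were 0.13 for ACACA (95% interval −0.59 to 0.85), −0.24 for FASN (−1.55 to 1.06), 0.13 for ACLY (−0.41 to 0.67), 0.48 for SREBF1 (−0.33 to 1.28) and 0.09 for DGAT2 (−0.53 to 0.71). ELOVL6 was at −0.10, MLXIPL at 0.16 and GPAM at 0.11. These intervals show what 3 cows against 3 could resolve and do not show that heat left the genes as they were. Among the 10, no gene was called by edgeR (0 DEGs), against 0.0276% of 14510 genes, and 0 by DESeq2, against 0.771%. An unadjusted p under 0.05 occurred in 5.32% of all genes, and the groups did not overlap in 0 of the 10 genes and in 10.5% of all genes. The median log2 fold change was 0.12 over the 10 genes and 0.01 over all.

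Since HS and PF cows had the same intake, both were also set together against TN in a fit of all 9 libraries. ACACA was lower by 2.17 on the log2 scale (log2 fold change −2.17, SE 0.40), the 13th smallest p of the 15073 genes tested, with an edgeR FDR of 0.154. FASN was at −2.19 (SE 0.56, FDR = 0.282), DGAT2 at 1.17 (SE 0.34, FDR = 0.323), ACLY at −0.75 (SE 0.26, FDR = 0.410) and SREBF1 at −0.83 (SE 0.32, FDR = 0.433). These 5 had an unadjusted p under 0.05, as did 10.7% of all genes. Again 0 of the 10 were DEGs by edgeR, against 0.0531% of genes, and 2 by DESeq2, ACACA (FDR = 7.4e-05) and DGAT2 (FDR = 0.0468), against 1.51%. Without TN replicate 2, ACACA (FDR = 0.00445) and FASN (FDR = 0.0771) were DEGs by edgeR. SCD, at −1.30 (SE 0.91), MLXIPL, at −0.58 (SE 0.31), and ELOVL6, GPAM and ACACB, at −0.27, −0.08 and 0.14, had an unadjusted p above 0.05. ACACA, ACLY and DGAT2 did not overlap between the 6 low-intake cows and the 3 TN cows, against 4.74% of all genes. A test of the 3 groups together gave the smallest FDR to ACACA, 0.166, and 0 of the 10 passed, against 0.0464% of all genes, while 5 of the 10 had an unadjusted p under 0.05, against 7.86%. By DESeq2 1 of the 10 passed in this test, ACACA, against 1.89%. The comparisons with TN share the same 3 TN cows and are not independent of each other.

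SREBF1 and MLXIPL were each compared with the other members across cows on the log2 CPM scale. Correlations of SREBF1 and MLXIPL with the other members made 17 pairs, tested by exact two-sided permutation over the 9 cows, and 4 of them, all with SREBF1, had a Benjamini-Hochberg adjusted p under 0.05 by Pearson's r and 0 by Spearman's rho. With DGAT2 the relation was inverse, with r = −0.81 (exact permutation p = 0.00555, adjusted p = 0.0243) and rho = −0.83 (exact p = 0.00827, adjusted p = 0.0703). Leaving out PF replicate 3 and HS replicate 2, the cows farthest from the median of SREBF1, gave r = −0.77. With ACLY, r was 0.77 (exact permutation p = 0.00572, adjusted p = 0.0243) and rho 0.88 (exact p = 0.00308, adjusted p = 0.0523), and r was 0.62 without the same cows. In DGAT2 and ACLY the TN cows did not overlap with the others, and values were permuted across groups. The p-values of these pairs therefore also take in the difference between groups. The other 2 pairs were those with ACACA and FASN, in which TN replicates 1 and 3 lay apart from the rest, so no pooled r is given. Among the 6 HS and PF cows, r of SREBF1 was 0.78 with ACACA (exact permutation p = 0.0375, adjusted p = 0.220) and 0.74 with FASN (exact permutation p = 0.121, adjusted p = 0.228). Their rho was 0.66 (exact p = 0.175) and 0.60 (exact p = 0.242).

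Among these 6 cows ACLY followed the order of SREBF1 fully, with rho = 1 (exact permutation p = 0.00278) and r = 0.93 (exact permutation p = 0.00139, adjusted p = 0.0236), and it was the only pair of the 17 that passed. On values centred on each group's mean and permuted within groups, r was 0.91 for FASN, 0.79 for ACACA, 0.62 for ACLY and −0.77 for DGAT2, and 0 of the 17 pairs had an adjusted p under 0.05, the smallest p that occurred being 0.0185 (exact permutation). MLXIPL had no relation to any enzyme that passed over the 9 cows. With SCD its r was −0.30 (exact permutation p = 0.416, adjusted p = 0.643) and its rho −0.20 (exact p = 0.613). Among the 6 HS and PF cows the same pair had r = −0.83 (exact permutation p = 0.0389, adjusted p = 0.220). The 9 points of each pair share their libraries.

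**Figure D4:**
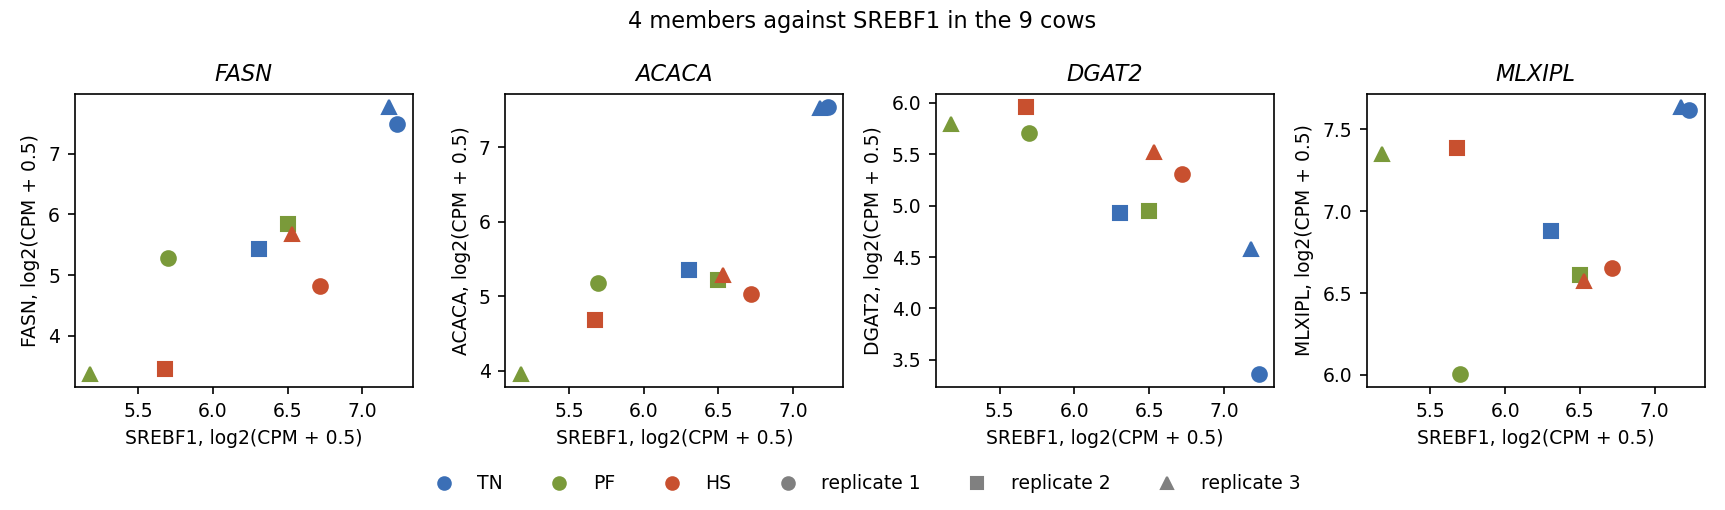
FASN, ACACA, DGAT2 and MLXIPL (vertical axes) against SREBF1 (horizontal axes) in the 9 cows, each as log2(CPM + 0.5), with the group in colour and the replicate number as the symbol. TN replicates 1 and 3 have the highest SREBF1 and stand apart in ACACA and FASN, DGAT2 is lower where SREBF1 is higher, and MLXIPL shows no single trend.

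The other genes of the pathway were described in 6 lists. Of 73 genes, ELOVL3 and MOGAT2 had at most 1 count and were not tested, nor was ELOVL7 in HS against TN, and 0 of the others were DEGs by edgeR in any pair. At an unadjusted p under 0.05 there were 9 in HS against TN, 9 in HS against PF and 6 in PF against TN of the 70 to 71 tested, against 9.36%, 5.32% and 6.88% of all genes. DESeq2 called 4, 3 and 3 in the same order, against 1.75%, 0.771% and 0.555% of all genes, and none of these counts was tested against those shares. The 9 in HS against PF include ELOVL7, which passed the filter through the PF cows alone. In the list of regulators of lipogenesis, 3 of 18 genes had an unadjusted p under 0.05 in HS against TN cows, all lower, namely THRSP, INSIG1 and PNPLA3. Among all genes 5.23% were lower at that level. THRSP, a small protein tied to lipogenic gene activity, was at 43.4, 22.2 and 70.6 CPM in TN, 12.3, 6.37 and 1.48 CPM in PF and 1.18, 1.17 and 12.4 CPM in HS cows. All TN cows lay above all others, as for ACACA. Its log2 fold change was −3.26 in HS (SE 0.86, FDR = 0.345) and −2.77 in PF (SE 0.62, FDR = 0.523) against TN, and −0.47 (SE 0.89) between HS and PF, all by edgeR. Without HS replicate 3 THRSP was a DEG in HS against TN (log2 fold change −5.28, FDR = 0.0676 with edgeR). With no filter on low counts it was a DEG in HS (FDR = 0.0339) and in PF (FDR = 4.4e-05) against TN by edgeR.

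INSIG1, which retains the SREBP precursors in the endoplasmic reticulum and is itself a target of SREBP, was at 379, 435 and 590 CPM in TN, 298, 633 and 247 CPM in PF and 236, 178 and 195 CPM in HS cows. Each HS cow lay below every other cow. Its log2 fold change was −1.22 in HS against TN (SE 0.32, edgeR FDR = 0.330, DESeq2 FDR = 0.00277), −0.96 in HS against PF (SE 0.36, edgeR FDR = 0.806, DESeq2 FDR = 0.287) and −0.26 in PF against TN (SE 0.41). PNPLA3, named only because it completes the count of 3, was at −2.90 in HS against TN on 0 to 16 counts in the HS cows (edgeR FDR = 0.462, DESeq2 FDR = 0.0783). The median of the list was −0.01 in HS and −0.07 in PF against TN.

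In the list of glycerolipid assembly, LPIN1 had the smallest p of all listed genes between HS and PF cows. LPIN1, the phosphatidate phosphatase that makes the diacylglycerol used by DGAT2, was at 107, 166 and 61.1 CPM in TN, 39.7, 32.0 and 41.9 CPM in PF and 87.1, 72.1 and 84.3 CPM in HS cows. PF cows lay below all others, and HS cows lay within the range of TN cows. The log2 fold change was −1.56 in PF against TN (SE 0.36, edgeR FDR = 0.523, DESeq2 FDR = 0.00686) and 1.10 in HS against PF (SE 0.22, edgeR FDR = 0.226, DESeq2 FDR = 0.00428). It was the 1 gene of the 13 tested in this list with an unadjusted p under 0.05 in HS against PF, against 5.32% of all genes. MOGAT1, a monoacylglycerol acyltransferase, had a log2 fold change of 1.16 in HS against TN (SE 0.33, edgeR FDR = 0.392, DESeq2 FDR = 0.0433), and GPD1 one of 0.70. AGPAT5 was at 0.84 in PF against TN. The median of the list lay between 0.14 and 0.18 in the 3 pairs.

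**Figure D5:**
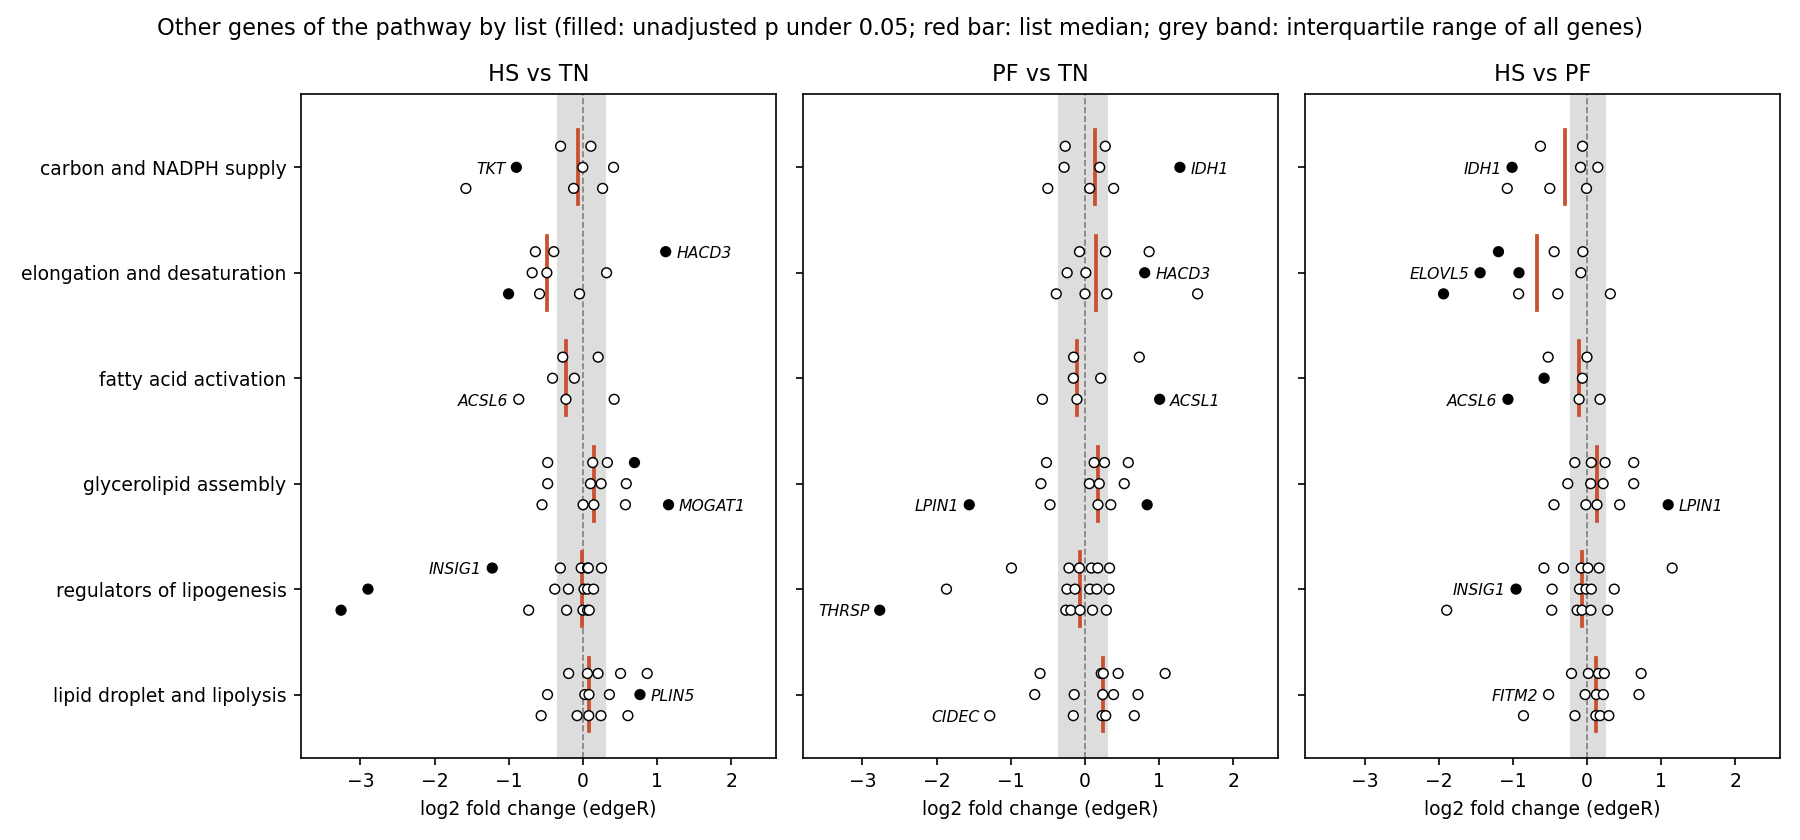
Fitted log2 fold changes (horizontal axes) of the tested genes in 6 pathway lists (rows, points spread vertically for legibility) in the 3 pairs of groups, filled where the unadjusted p of edgeR is under 0.05. A red bar marks the median of each list, the grey band the interquartile range of all genes, and the named gene has the smallest p of its list. The median of the elongation and desaturation list between HS and PF is −0.68 with ELOVL7, which passed the filter through the PF cows alone. Without ELOVL7 the middle value is −0.44.

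The elongation and desaturation genes beyond ELOVL6 and SCD had a median log2 fold change of −0.68 in HS against PF cows with ELOVL7 included. Without ELOVL7 the middle value in this pair was that of HSD17B12, −0.44. The median was −0.48 in HS against TN and 0.15 in PF against TN. In HS against PF, ELOVL5, ELOVL2 and SCD5 had an unadjusted p under 0.05 and were lower (2.25% of all genes were lower at that level). ELOVL7 did too, but it had 10, 6 and 1 counts in HS and 30, 15 and 11 counts in PF cows. It passed the filter through the PF cows alone, so it is not counted with them, although it enters the median of −0.68. ELOVL5, which lengthens polyunsaturated fatty acids, was at 147, 108 and 185 CPM in TN, 439, 226 and 139 CPM in PF and 95.7, 71.4 and 130 CPM in HS cows. Each HS cow lay below each PF cow, with PF replicate 1 highest. The log2 fold change in HS against PF was −1.44 (SE 0.41, edgeR FDR = 0.564, DESeq2 FDR = 0.0226). HACD3, the dehydratase of the elongation cycle, had a log2 fold change of 1.12 in HS against TN (SE 0.34, edgeR FDR = 0.417, DESeq2 FDR = 0.0487). It was at 0.81 in PF against TN (SE 0.35, edgeR FDR = 0.708) and at 0.32 in HS against PF (SE 0.28). SCD5, the second stearoyl-CoA desaturase, was at 0.499-fold the TN level and at a log2 fold change of −0.92 against PF in HS cows.

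In the list of carbon and NADPH supply, IDH1, the cytosolic isocitrate dehydrogenase that yields NADPH in ruminant lipogenesis, was at 69.8, 154 and 131 CPM in TN, 289, 257 and 320 CPM in PF and 136, 121 and 174 CPM in HS cows. PF cows lay above all others. The log2 fold change was 1.28 in PF against TN (SE 0.35, edgeR FDR = 0.647, DESeq2 FDR = 0.0214) and −1.01 in HS against PF (SE 0.26, edgeR FDR = 0.408, DESeq2 FDR = 0.0143). TKT, of the pentose phosphate pathway, was at −0.90 in HS against TN (SE 0.38). These were the genes of the 8 with an unadjusted p under 0.05, 1 in each pair. Of all genes, 9.36% had such a p in HS against TN, 5.32% in HS against PF and 6.88% in PF against TN.

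In the list of fatty acid activation, ACSL1, a long-chain acyl-CoA synthetase, was at 100, 134 and 162 CPM in TN, 296, 281 and 220 CPM in PF and 197, 158 and 180 CPM in HS cows. PF cows lay above all others. Its log2 fold change was 1.01 in PF against TN (SE 0.31, edgeR FDR = 0.693, DESeq2 FDR = 0.0673) and −0.58 in HS against PF (SE 0.25, edgeR FDR = 0.908). ACSL6 was at −1.07 in HS against PF (SE 0.35) and −0.86 in HS against TN (SE 0.44). In the list of lipid droplet and lipolysis, PLIN5, a droplet protein of oxidative tissues, was the 1 gene of 15 with an unadjusted p under 0.05, at 0.77 in HS against TN (SE 0.30, edgeR FDR = 0.488). Of all genes, 9.36% had such a p in that pair. FITM2, at −0.52 in HS against PF, and CIDEC, at −1.28 in PF against TN, had the smallest p of this list in their pairs.

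Reads on ACACA and SREBF1 may include reads of other genes. By RefSeq on ARS-UCD2.0, an assembly that followed the ARS-UCD1.2 of the alignments, ACACA overlaps C19H17orf78, a long noncoding RNA and a small nuclear RNA, and SREBF1 overlaps RAI1 and a microRNA gene. FASN and GPAM each overlap a microRNA gene, and the other members overlap no gene. All 10 members were found there, and positions are not given, since the assemblies differ. The strand setting of the counting was not given in the sources used here.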

How the data were processed

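Liver poly(A) RNA of 9 Holstein cows (TN, PF and HS, n = 3 each) was sequenced in paired-end mode. The deposited values are the authors' raw read counts per gene, without normalization. Per the labels and the study's methods, reads were cleaned with fastp 0.23.2, aligned to ARS-UCD1.2 with STAR 2.7.9a and counted with featureCounts 2.0.3; the annotation release and the strand and multi-mapping settings were not given in the sources used here. Library totals limit low genes as stated in the text, and the floor of 3 counts covers counting error only.

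Pairs of groups were fitted on their 6 libraries, and low intake against TN and the 3-group test on all 9, with edgeR 4.0.16 in R 4.3.3 (filterByExpr, TMM, quasi-likelihood F test, Benjamini-Hochberg over all genes tested). SE and 95% intervals come from the same fit and include the spread between cows. The mean CPM ± SD uses TMM over 9 libraries, and log2 CPM an offset of 0.5. Correlations used exact permutation (362880 orders of 9 cows, 720 of 6, 216 within groups) with SciPy 1.17.1. Tests were first tried on simulated counts. Alternatives were DESeq2 1.42.0, RLE size factors, mitochondrial genes left out, 2 other filters on low counts, 1 fit of all libraries, a replicate block, an FDR under 0.05, an offset of 2 for correlations and each cow left out.

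The members and lists were chosen with earlier results of these data known. Named beyond the members are, in each list and pair, the gene with the smallest p, and any DEG. PNPLA3, GPD1, AGPAT5, SCD5, ELOVL2 and ELOVL7 were named after their values were seen, to complete counts. Correlations in the 6 HS and PF cows were also chosen after the data were seen. Groups follow the labels of the samples; nothing in the labels gives a batch. Promoter and protein sequences were not used here.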

Additional observations from a re-analysis of the deposited data

How the results depend on the processing

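With 3 cows in each group, the fits could not separate most differences here from the spread between cows, and ACACB rested on few reads. The directions of ACACA, FASN, ACLY, SREBF1, MLXIPL and DGAT2 against TN were the same in every fit that was run. Under DESeq2 the number of the 10 genes that were DEGs was 2 in HS against TN, 1 in PF against TN, 2 in low intake against TN and 1 in the 3-group test, where edgeR gave 0, and GPAM in HS against TN changed sign to 0.000201. With no filter on low counts these numbers were 2, 2, 3 and 2, and 2 of the 10 had an unadjusted p under 0.05 in HS against PF. With at least 10 counts in every library ACACB was not tested, and 0 had such a p in that pair. RLE size factors, leaving out the mitochondrial genes, 1 fit of all 9 libraries for the pairs and an FDR under 0.05 changed no count of DEGs among the 10. The cause of these differences was not tested. Over the members and the named list genes, in all settings other than leaving out a cow, 1 log2 fold change changed sign, 29 came to pass the criteria and 423 kept their direction and call.

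The replicate number as a block made 1 of the 10 genes a DEG in HS against TN, FASN (log2 fold change −2.29, edgeR FDR = 0.0528), and of the listed genes THRSP in the same pair (log2 fold change −3.92, edgeR FDR = 0.0528), and left 3 of the 10 with an unadjusted p under 0.05 in the 3-group test. The labels do not say that a number marks a shared animal, day or batch, and 3 of 9 same-numbered pairs of cows had deviations correlated above 0.1 (−0.22 to 0.24), so the numbers were not taken to pair the cows.

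Leaving out each cow in turn, the number of DEGs among the 10 was 0 to 1 in HS against TN, 0 to 0 in HS against PF, 0 to 1 in PF against TN, 0 to 2 in low intake against TN and 0 to 1 in the 3-group test, each above 0 only without TN replicate 2. The number with an unadjusted p under 0.05 was 3 to 6, 1 to 3, 2 to 5, 3 to 6 and 3 to 6, respectively. When a cow was left out, the log2 fold change in HS against PF ranged from −0.19 to 0.33 for ACACA, −0.018 to 0.27 for ACLY, −0.13 to 0.25 for DGAT2, −0.99 to 0.22 for ELOVL6, −0.86 to 0.30 for FASN, −0.12 to 0.52 for GPAM and −0.15 to 0.57 for MLXIPL. In HS against TN it ranged from −0.27 to 0.21 for GPAM. In PF against TN it ranged from −0.54 to 0.16 for ELOVL6, −0.54 to 0.12 for GPAM and −1.41 to 0.36 for SCD. Without a change of sign, SCD ranged from −3.93 to −1.83 in HS against TN, −3.69 to −0.96 in HS against PF and −2.07 to −1.003 in low intake against TN, ELOVL6 from −1.22 to −0.0075 and FASN from −2.94 to −1.91 in HS against TN. THRSP ranged from −5.28 to −2.76 in HS and −3.53 to −2.29 in PF against TN, and PNPLA3 from −3.35 to −2.11 in HS against TN. The log2 fold change in low intake against TN ranged from −0.35 to 0.62 for ACACB, −0.71 to 0.054 for ELOVL6 and −0.31 to 0.18 for GPAM.

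Without 1 cow the number of the 17 correlations with an adjusted p under 0.05 was 0 to 4, being 0 without PF replicate 1, without PF replicate 3 or without HS replicate 2 and 1 without TN replicate 1. The r ranged from −0.29 to 0.45 for MLXIPL with ACLY, −0.071 to 0.41 for MLXIPL with FASN, −0.19 to 0.47 for MLXIPL with GPAM and −0.075 to 0.34 for SREBF1 with GPAM. In the 6 HS and PF cows alone, r changed sign to −0.44 for SREBF1 with MLXIPL and −0.22 for SREBF1 with GPAM, and to −0.78, −0.73, −0.83, −0.38 and 0.42 for MLXIPL with ACACA, ACLY, FASN, GPAM and DGAT2.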
